A study of Xenopus laevis with 32 samples.

Results

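The genes described here are the ADAM and ADAMTS protease genes of Xenopus laevis, a frog whose tadpole tail can regrow after amputation except during a refractory period of development. They comprise every measured gene whose name starts with adamts, or with adam and a digit, other than the sheddase genes adam10 and adam17, together with the measured genes of the tissue inhibitors of metalloproteinases (timp2 and timp3) and of the secreted serine protease htra1. The choice was made by name, and it gave 57 of the 29303 genes in the deposited count tables. X. laevis is allotetraploid, and most of its genes exist as a pair of homeologs on the long (.L) and short (.S) chromosomes, so each homeolog is counted as 1 member. Of the 57 members, 56 were in the tables of both periods, and adam21.L, with 3 counts, was in the regeneration table only. A filter on low counts passed 45 members, and 12 were not tested: adamts3.S, adamts8.L, adamts9.S, adamts15.L, adamts15.S, adamts16.L, adamts17.S, adamts18.S, adamts19.L, adamtsl1.S, adamtsl3.S and adam21.L. Those of the 12 that were in both tables averaged 0.136 to 1.54 CPM, a scale explained below.

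ADAM proteins are membrane-anchored proteins with a disintegrin domain, and those with an intact catalytic site cut the ectodomains of growth factors, receptors and adhesion molecules from the cell surface. ADAMTS proteins are secreted relatives that bind the extracellular matrix and cut procollagens and proteoglycans such as versican and aggrecan, while the ADAMTS-like proteins lack the protease domain and associate with fibrillin microfibrils. TIMP proteins block metalloproteinases, TIMP3 being the one that in mammals also inhibits several ADAM and ADAMTS enzymes. HtrA1 cuts matrix proteins and restrains TGF-beta signalling.

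RNA was from amputated tails in 8 groups: 0, 0.5, 6 and 72 h after amputation in the refractory period, and the same times in the regeneration period. Each group had 4 libraries, A to D, described in the labels as biological repeats, and each library was made from RNA of 20 embryos. No genotype, strain, drug or unamputated tail of a later time is named, so a change from 0 h also holds what the growing tail does without a wound. The protocol text names 1 developmental stage, a regenerative one, for all samples alike, and the groups here follow the period each label names.

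Libraries held 1868637 to 3567797 counts in the refractory period and 2646237 to 4022871 in the regeneration period. Levels are given in CPM, the counts scaled to a common library size with TMM factors. In a single library 3 counts corresponded to 0.713 to 1.6 CPM, the level that a count of 0 allows, which covers counting error only. CPM is not scaled by transcript length, so levels are compared between groups and not between genes. The skeletal muscle marker actc1.L averaged 23800 CPM over the 32 libraries, while the retinal gene rho.L averaged 228 CPM and the liver gene ttr.S 794 CPM, although the labels name tails. Refractory 72 h A and regeneration 0 h A, 0.5 h A and 6 h B stood apart from the rest: their summed retina and lens markers were 845 to 1020 CPM, against 358 to 793 CPM in the other 28 libraries, their liver, pancreas and gut markers 3750 to 3900 against 1570 to 3250 CPM, and their mesenchyme markers 7200 to 8160 against 12600 to 29800 CPM. The authors' normalized tables lack these 4 and refractory 0.5 h A. Results that rest on them are therefore also given for the 27 libraries of those tables. The mesenchyme sum was mostly that of the collagen genes col1a1.L and col1a1.S, with means of 9250 and 6520 CPM over all libraries. The next highest marker of that list, lum.S, averaged 148 CPM. In bulk tissue, fewer cells of a type and less RNA per cell cannot be told apart.

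**Figure D1:**
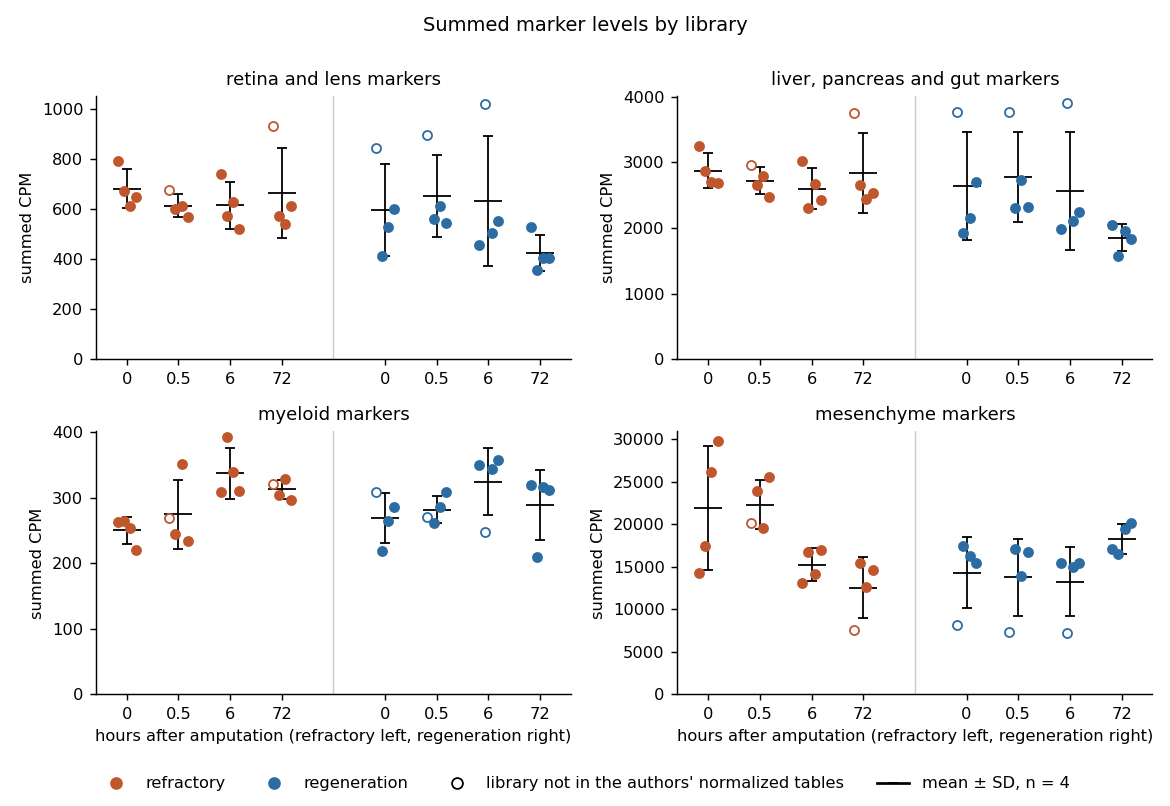
Summed CPM of 4 marker lists in each library (points), by hours after amputation, with refractory libraries left and regeneration libraries right of the grey line; black bars give mean ± SD of 4 libraries, and open points are the 5 libraries that the authors' normalized tables lack. Of the open points, 4 lie above all filled points for retina and lens (845 to 1020 CPM) and for liver, pancreas and gut, and below them for mesenchyme.

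Of the 45 members tested, 5 passed the test in at least 1 comparison, and all 5 were higher after amputation. That is 11.1% of the tested members, where 6.9% of all tested genes were called in any of the 10 comparisons, and 3.74% were called higher in any of the 6 comparisons with 0 h of the same period. They were adam33.L and adam28.1.L at 6 h in the refractory period, adamts1.L at 0.5 h in the refractory period, and adamts1.L, adamts1.S and htra1.L at 72 h in the regeneration period. The test was edgeR's quasi-likelihood test with Benjamini-Hochberg adjustment over all 21231 genes, and a gene was called at an adjusted p under 0.05. All adjusted p-values of genes below come from it. Lack of overlap between 2 groups was not rare. Refractory libraries did not overlap those at 0 h for 3.4, 7.97 and 5.93% of all genes at 0.5, 6 and 72 h. The members without overlap were 2, 7 and 2 of 45. In the regeneration period these were 2.3, 3.49 and 10.8% of all genes and 1, 2 and 6 members. Between the periods at 0 h it was 4.93% and 1 member. A call in one period is not shown to differ from the other: the difference between the periods' changes was called for no member at 0.5, 6 or 72 h. In the 27 libraries the 6 calls were all kept, and adam33.L at regeneration 6 h, adam15.L and adam19.S (both lower) at regeneration 72 h, adamts1.S at refractory 0.5 h, adam11.L at refractory 6 h, and adam28.1.L and adamts7.L at refractory 72 h were called as well.

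**Figure D2:**
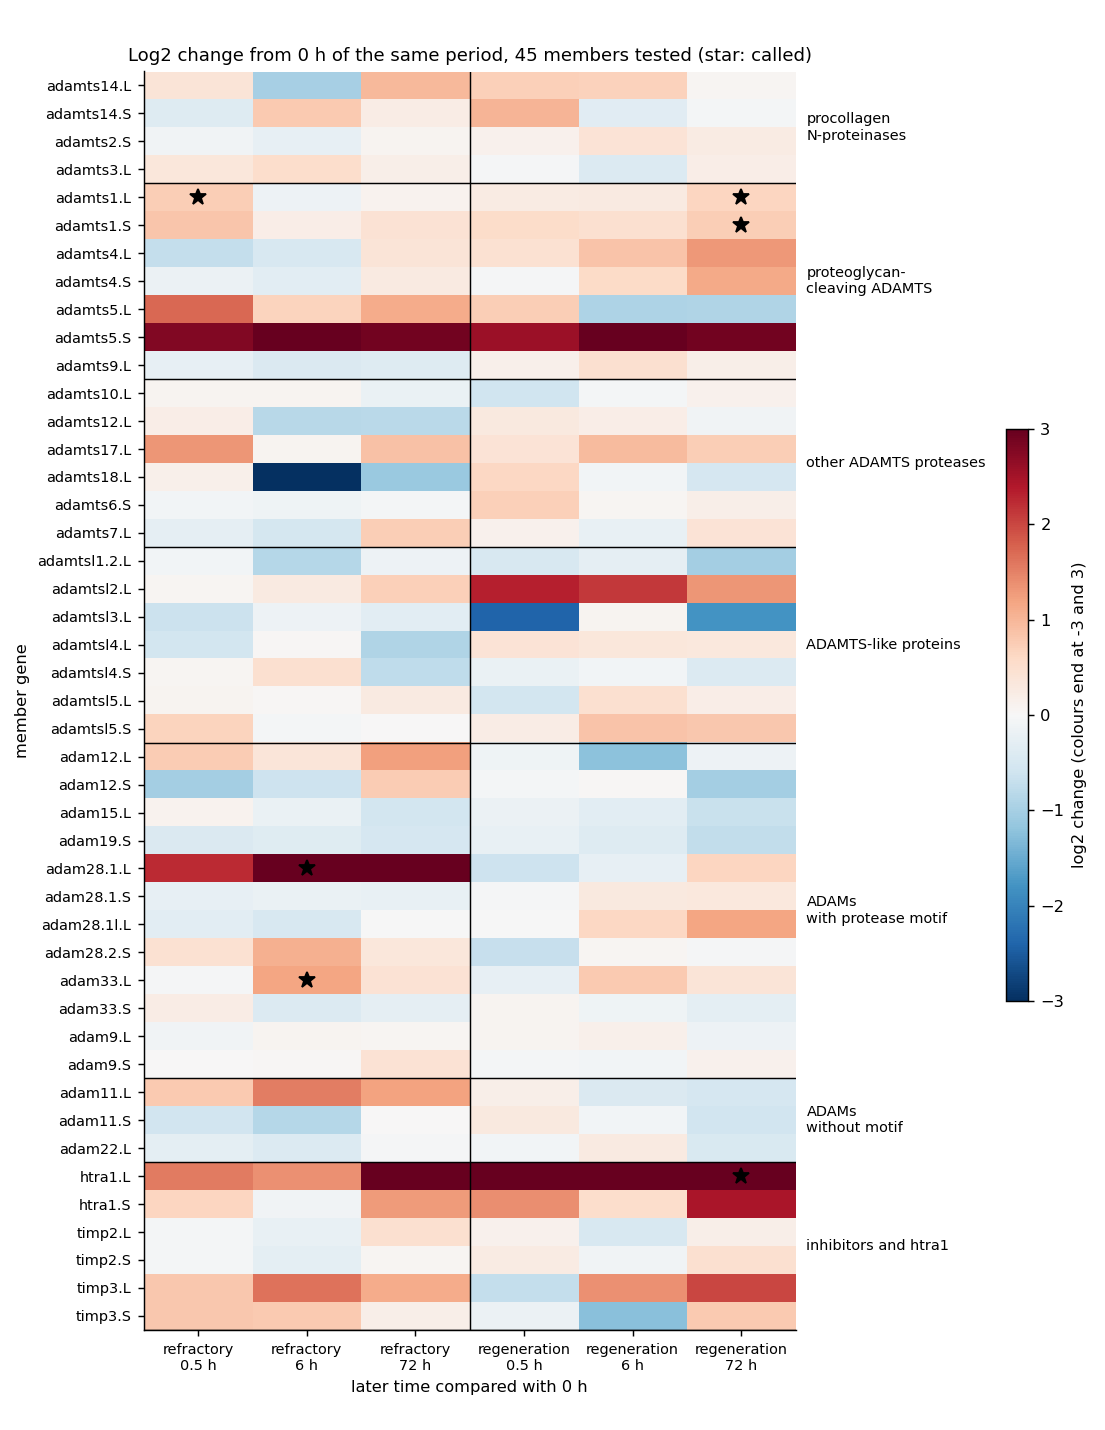
Log2 change of each of the 45 tested members (rows, grouped by role) from 0 h of the same period (columns, refractory left and regeneration right); colour gives the log2 change, ending at -3 and 3, and stars mark the 6 calls of 5 members. The darkest cells outside the stars, such as those of adamts5.S, were not called and belong to members with few counts, whose fitted size depends on the prior count of the fit.

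Among the 12 tested ADAMs with a zinc-binding protease motif, as assigned by name, 2 rose at refractory 6 h and none fell. One of the 12, adam28.1l.L, has the RefSeq synonym adam7, which makes its place in this group uncertain. The first was adam33.L, which the RefSeq annotation also lists as adam13, the gene of a protease that in Xenopus cuts cadherin-11 and takes part in cranial neural crest migration. It had 85.6, 162, 124 and 131 CPM at refractory 6 h, against 56.0, 56.7, 50 and 56.6 CPM at refractory 0 h. All 6 h libraries lay above all 0 h libraries, and the means were 126 ± 31.4 and 54.8 ± 3.27 CPM (SD, n = 4 each; log2 change 1.19 ± 0.21 SE, adjusted p = 8.14e-05 by edgeR). The call was kept in 8 of 8 omissions of 1 library, with adjusted p at most 0.00168.

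Across the refractory series adam33.L averaged 54.8, 53.8, 126 and 73.8 CPM at 0, 0.5, 6 and 72 h. Its level was thus highest at 6 h. At 72 h it had 65.7, 63.9, 81.9 and 83.7 CPM, still above all 0 h libraries, and 5.93% of all genes also lacked overlap there. The change from 0 h to 72 h did not pass the test (log2 change 0.43 ± 0.21, adjusted p = 0.456).

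At regeneration 6 h adam33.L had 140, 41.0, 124 and 123 CPM, against 61.6, 53.6, 72.4 and 61.3 CPM at 0 h. The 6 h libraries A, C and D lay above every 0 h library, and 6 h B, one of the libraries that stood apart in its tissue markers, lay below them all. With it, the change was not called (log2 change 0.78 ± 0.20, adjusted p = 0.0858 by edgeR). In the 27 libraries, which lack 6 h B and 0 h A, adam33.L averaged 127 ± 9.92 CPM at 6 h and 61.9 ± 9.36 CPM at 0 h (SD, n = 3 each) and was called (log2 change 1.04 ± 0.18, adjusted p = 3.06e-05 by edgeR). Leaving out 6 h B alone gave an adjusted p of 3.82e-05. At regeneration 72 h adam33.L had 77.6, 89.2, 77.7 and 79.1 CPM, above all 0 h libraries, and was not called. Lack of overlap there was seen for 10.8% of all genes. The difference between the periods at 6 h, refractory minus regeneration, was 0.41 ± 0.29 for adam33.L (adjusted p = 0.981).

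The second was adam28.1.L, a homolog of mammalian ADAM28, a protease of lymphocytes and other cells. It had 10.4, 13.1, 12.7 and 11.7 CPM at refractory 6 h, against 0, 0, 0.979 and 0 CPM at refractory 0 h. Counts were thus nearly absent at refractory 0 h and present in every 6 h library. The 4 libraries held 129 counts at 6 h and 2 counts at 0 h, a ratio of 61.1 after scaling for depth with a 95% exact interval of 16.6 to 510 for counting error. The test called it (adjusted p = 0.00205 by edgeR), and it was kept in 8 of 8 omissions, with adjusted p at most 0.016.

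At refractory 72 h adam28.1.L stood at 0, 6.42, 5.40 and 6.14 CPM. The 0 was in library A, which stood apart in its tissue markers. The change from 0 h missed the threshold with all libraries (adjusted p = 0.0548 by edgeR) and passed in the 27 libraries, with 5.94 ± 0.52 CPM at 72 h (n = 3) and 0.245 ± 0.49 CPM at 0 h (n = 4; SD, adjusted p = 0.00295 by edgeR). It also passed without refractory 72 h A alone (adjusted p = 0.0171) or without refractory 0 h C alone (0.0241).

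Over the regeneration series adam28.1.L averaged 1.92, 1.21, 1.56 and 3.00 CPM at 0, 0.5, 6 and 72 h, with single libraries between 0 and 4.56 CPM. The highest regeneration library lay below the lowest refractory 6 h library. The share of all genes with such a gap was not counted. At 0 h the mean was 0.245 ± 0.49 CPM in refractory tails and 1.92 ± 0.859 CPM in regeneration tails (SD, n = 4 each; adjusted p = 0.421 by edgeR). The difference between the periods' changes at 6 h had an unadjusted p of 3.59e-04 but an adjusted p of 0.171 for adam28.1.L.

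Marker lists of other cells that a tail sample holds also moved at refractory 6 h. The summed myeloid level ran from 308 to 392 CPM at refractory 6 h, against 220 to 264 CPM at refractory 0 h, although none of the 13 tested markers was called (median log2 change 0.52), and none of the 14 in the list was at 0 over all libraries. The most abundant of them was mpo.L, with a mean of 197 CPM over all libraries. For regeneration tails the myeloid sum ran from 248 to 358 CPM at 6 h, against 219 to 308 CPM at 0 h. These groups overlapped through 6 h B and 0 h A, which stood apart in their tissue markers. The other libraries ran from 343 to 358 CPM at 6 h and from 219 to 285 CPM at 0 h. In the 27 libraries the median log2 change at 6 h was 0.585 in regeneration and 0.525 in refractory tails, with no marker called.

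Of 6 epidermis markers tp63.L and tp63.S rose at refractory 6 h, and the sum of the 6 ran from 558 to 585 CPM, against 409 to 460 CPM at refractory 0 h, without overlap. In regeneration tails the epidermis sum ran from 469 to 1690 CPM at 6 h, against 530 to 1140 CPM at 0 h, with no marker called. The lowest values were those of 6 h B and 0 h A, which stood apart. The other libraries ran from 1180 to 1690 CPM at 6 h and from 951 to 1140 CPM at 0 h, without overlap. In the 27 libraries, too, no epidermis marker was called at regeneration 6 h. The endothelial sum ran from 34.7 to 57.9 CPM at refractory 6 h, against 53.9 to 72.5 CPM at refractory 0 h, and the mesenchyme sum from 13100 to 17000 CPM, against 14300 to 29800 CPM, with no marker of either list called. The part of these cells in the levels of adam33.L and adam28.1.L was not tested.

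At 6 h the members' calls can be set beside those of all genes. In the refractory period 2 of 45 members were called higher and none lower, where 2.21% of all genes were called higher and 0.24% lower. At regeneration 6 h none of 45 was called, where 0.273% of all genes were. There 5 members had an unadjusted p under 0.05, as did 6.79% of all genes. DESeq2 likewise called 0 members there, but it gave no adjusted p to 8 of the 45.

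The homeologs of these 2 genes were not called. For adam33.S the levels were 2.88, 18.6, 11.4 and 6.02 CPM at refractory 6 h, against 9.33, 18.4, 12.7 and 10.5 CPM at refractory 0 h, and the groups overlapped (log2 change -0.41 ± 0.44, adjusted p = 0.815). For adam28.1.S they were 71.2, 52.3, 54.4 and 50.7 CPM at refractory 6 h, against 62.8, 67.4, 61.2 and 72.0 CPM at 0 h, again overlapping (log2 change -0.21 ± 0.21, adjusted p = 0.796).

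**Figure D3:**
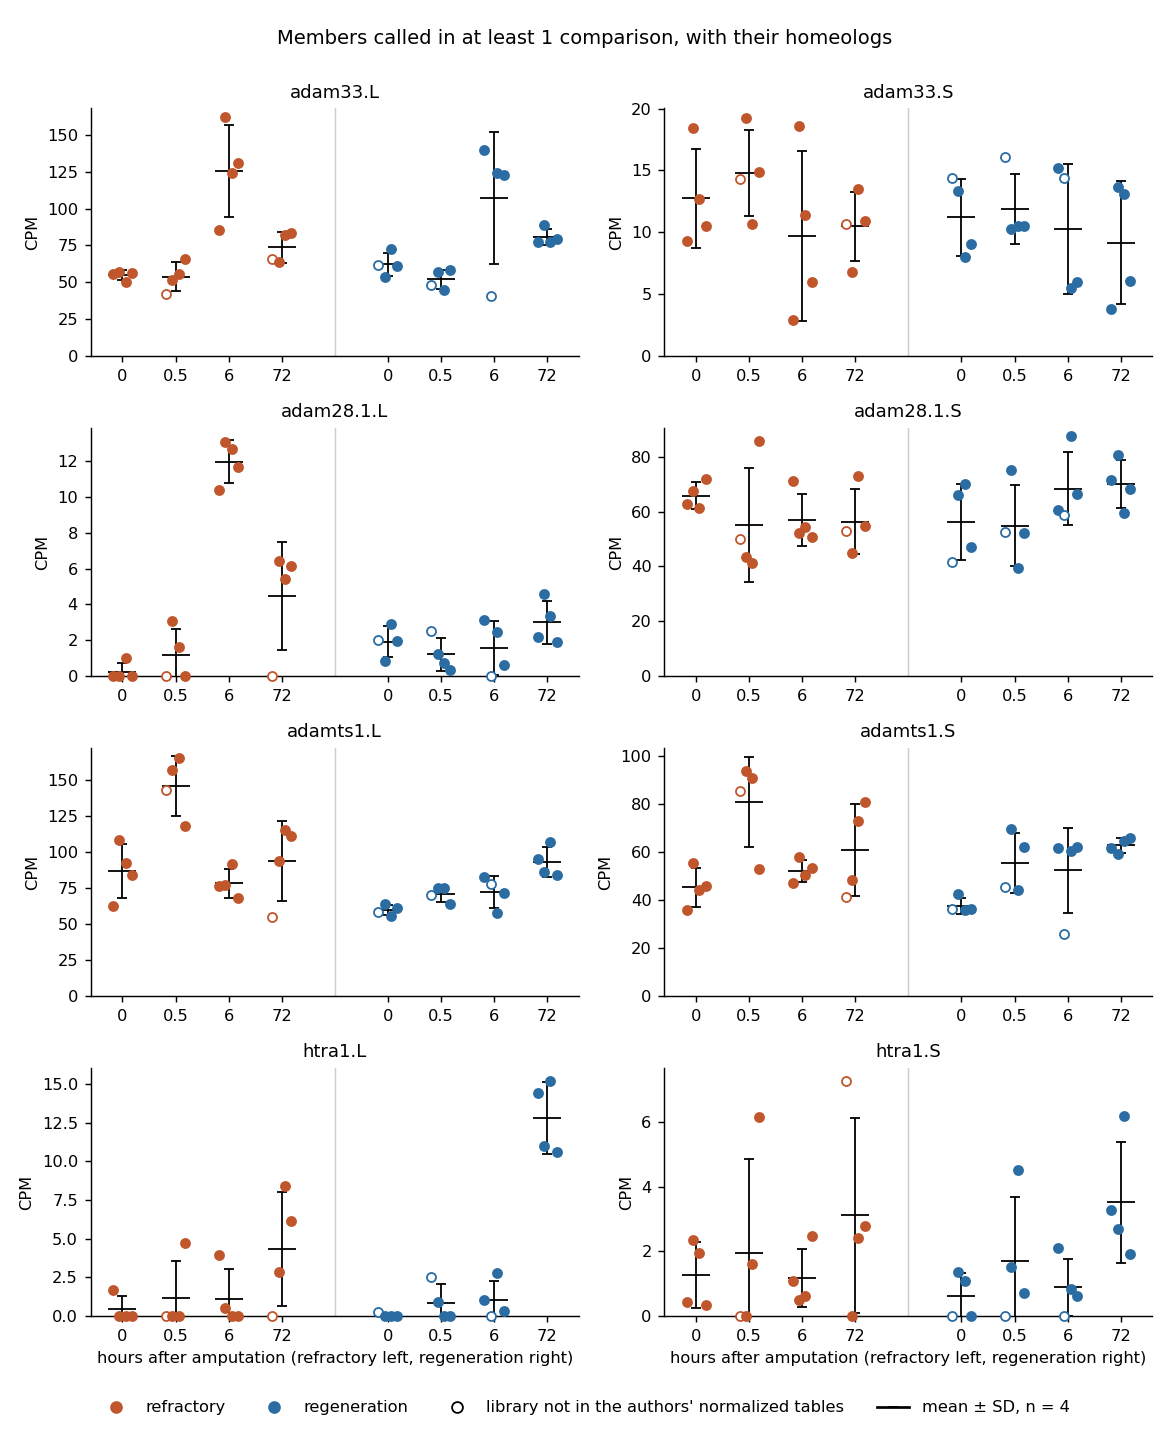
CPM of adam33, adam28.1, adamts1 and htra1 in each library (points), the .L homeolog in the left and the .S homeolog in the right column, by hours after amputation, with refractory libraries left and regeneration libraries right of the grey line; black bars give mean ± SD of 4 libraries, and open points are the 5 libraries that the authors' normalized tables lack. In the refractory period adam33.L and adam28.1.L are highest at 6 h (126 and 12.0 CPM), and in the regeneration period htra1.L is highest at 72 h (12.8 CPM).

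Whether the .L and .S genes of a pair changed unequally was tested directly, on the difference of their log2 CPM in each library, with limma over 5584 pairs. Of the 14 member pairs tested, 2 were called, both at refractory 6 h, where 1% of all pairs were called. The log2 change of adam28.1.L exceeded that of adam28.1.S by 4.15 ± 0.63 (SE, limma, adjusted p = 6.31e-06), a size that depends on the prior count because adam28.1.L was near 0 at 0 h. The share of the pair's counts that came from adam28.1.L was 17.2 ± 3.27% at refractory 6 h and 0.293 ± 0.787% at refractory 0 h (pooled counts, SD over 4 libraries).

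For adam33 the difference was 1.75 ± 0.42 (SE, limma, adjusted p = 0.014). The share from adam33.L was 93.1 ± 3.32% at refractory 6 h and 81.0 ± 4.64% at refractory 0 h (SD over 4 libraries). This call was lost in 4 of 8 omissions of 1 library, with adjusted p of 0.0881 and 0.0864 without refractory 6 h A or D and of 0.0719 and 0.0549 without refractory 0 h B or C, whereas that of adam28.1 was kept in 8 of 8. At regeneration 6 h the differences were 0.85 ± 0.42 for adam33 and -0.76 ± 0.63 for adam28.1 (limma, adjusted p = 0.899 and 0.98). These values include regeneration 6 h B, which stood apart in its tissue markers. The share from adam33.L was 91.4 ± 10.2% at regeneration 6 h and 84.0 ± 4.77% at regeneration 0 h (SD over 4 libraries). Whether the homeologs' difference itself differed between the periods was not tested. The sources used here do not say how reads shared by 2 homeologs were assigned, which leaves their split uncertain.

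**Figure D4:**
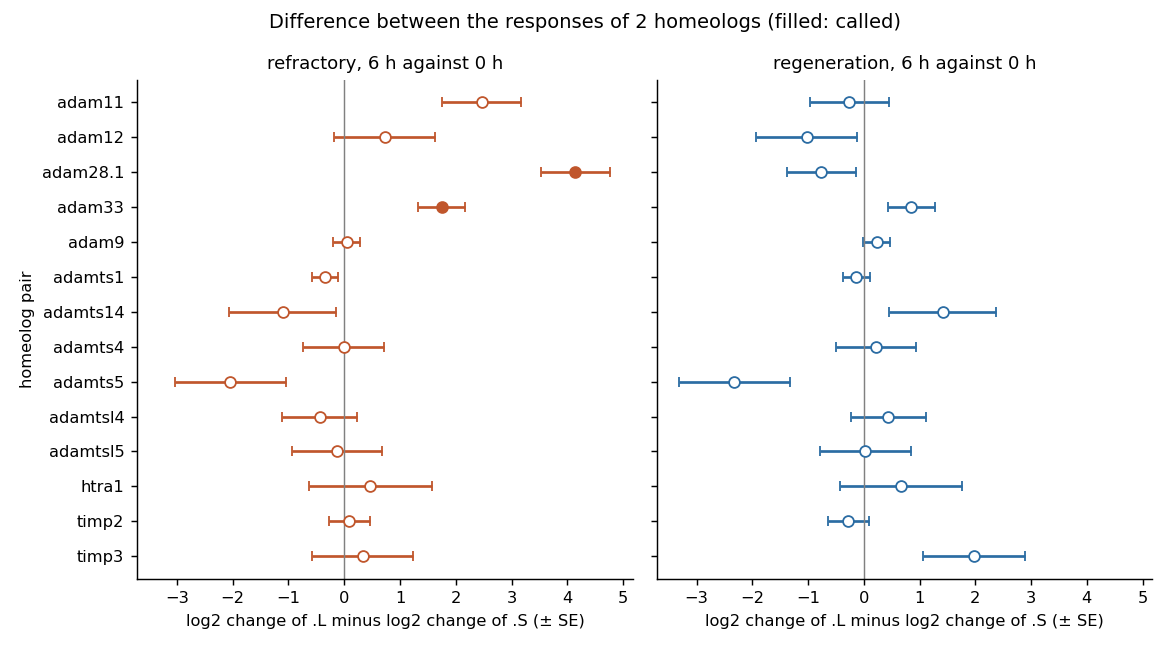
Log2 change of .L minus log2 change of .S (horizontal axis, ± SE) for the 14 member pairs tested, 6 h against 0 h, in the refractory period (left) and the regeneration period (right); filled points passed the test. The filled points are adam28.1 (4.15) and adam33 (1.75), both in the refractory period.

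Of the other ADAMs with the motif, adam9.S, a widely expressed sheddase gene, had the most counts. It averaged 74.4, 75.0, 75.7 and 101 CPM at 0, 0.5, 6 and 72 h in the refractory period and 100, 95.5, 94.2 and 109 CPM in the regeneration period. None of its changes was called. At 0 h the refractory libraries had 82.7, 83.1, 64.2 and 67.5 CPM, against 92.3, 96.9, 117 and 94.1 CPM in regeneration libraries. These groups did not overlap, but the difference did not pass the test (log2 -0.43 ± 0.16, adjusted p = 0.327 by edgeR).

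The transmembrane ADAM genes adam15.L and adam19.S are named after their values were seen. At regeneration 72 h adam15.L had 23.7, 44.2, 45.6 and 37.8 CPM, against 37.5, 60.6, 72.4 and 71.9 CPM at 0 h (log2 change -0.67 ± 0.22, adjusted p = 0.0754 by edgeR). For adam19.S the values were 24.2, 18.5, 34.7 and 45.5 CPM at 72 h, against 50.9, 57.1, 52.0 and 43.5 CPM at 0 h (log2 change -0.73 ± 0.24, adjusted p = 0.0785 by edgeR). The 2 groups overlapped through 0 h A for adam15.L and through 72 h D and 0 h D for adam19.S, and neither gene was called. In the 27 libraries, which lack 0 h A, both were called lower, at log2 -0.86 ± 0.21 (adjusted p = 0.00356) for adam15.L and -0.74 ± 0.22 (adjusted p = 0.0274) for adam19.S. Without 0 h A alone the adjusted p of adam15.L was 0.0163, and without 72 h D alone that of adam19.S was 0.0166. At refractory 72 h both were also lower than at refractory 0 h, but neither was called, also not in the 27 libraries. Over 8 omissions of 1 library the log2 change there ran from -0.70 to -0.39 for adam15.L and from -0.70 to -0.32 for adam19.S.

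The other ADAMs of this group were not called. A relative of adam28.1, adam28.2.S, had 7.55, 10.6, 16.7 and 19.8 CPM at refractory 6 h, against 7.64, 6.34, 8.81 and 3.50 CPM at refractory 0 h (log2 change 1.07 ± 0.46, adjusted p = 0.296 by edgeR). In mammals ADAM12 is active in muscle and mesenchyme, and here adam12.L had 2.09, 5.38, 3.30 and 1.57 CPM at regeneration 6 h, against 6.21, 9.20, 7.64 and 5.93 CPM at 0 h. Its groups did not overlap, as was so for 3.49% of all genes, and it was not called (log2 change -1.23 ± 0.62, adjusted p = 0.734 by edgeR). Both were named after their values were seen. Over all libraries adam9.L averaged 47.96, adam28.1l.L 2.85 and adam12.S 2.46 CPM, and none of their changes had an unadjusted p under 0.05.

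The 3 ADAM members without the motif, adam11.L, adam11.S and adam22.L, encode surface proteins of nerve cells in mammals, and none was called. The member with the most counts, adam22.L, whose product is a receptor of the LGI1 protein, averaged 18.5, 15.1, 14.0 and 18.1 CPM at 0, 0.5, 6 and 72 h in the refractory period and 14.3, 13.6, 17.4 and 10.6 CPM in the regeneration period. The gene adam11.L, named after its values were seen, had 15.5, 22.1, 27.8 and 12.0 CPM at refractory 6 h, against 9.33, 8.01, 2.94 and 6.29 CPM at refractory 0 h. These groups did not overlap, and the change missed the threshold with all libraries (log2 change 1.53 ± 0.49, adjusted p = 0.0863 by edgeR) and passed in the 27 (1.52 ± 0.44, adjusted p = 0.0248 by edgeR) and with all 8 libraries of this comparison fitted alone (adjusted p = 0.024). At regeneration 6 h adam11.L stood at 3.67, 7.73, 7.15 and 10 CPM, against 13.7, 9.74, 8.73 and 5.93 CPM at 0 h, and the difference between the periods was not called (1.96 ± 0.69, adjusted p = 0.536).

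Among the proteoglycan-cleaving ADAMTS genes 7 of 11 were tested, and the calls were those of adamts1, whose product cuts versican and aggrecan in mammals. At refractory 0.5 h adamts1.L had 143, 157, 165 and 118 CPM, against 62.4, 108, 92.6 and 83.9 CPM at refractory 0 h. All 0.5 h libraries lay above all 0 h libraries (146 ± 20.4 and 86.7 ± 19.0 CPM, SD, n = 4 each; log2 change 0.74 ± 0.17 SE, adjusted p = 0.0334 by edgeR). The call was lost in 6 of 8 omissions of 1 library, with adjusted p of 0.517, 0.0803 and 0.157 without refractory 0 h A, C or D and of 0.0939, 0.212 and 0.258 without refractory 0.5 h A, B or C.

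For adamts1.S the levels were 85.3, 93.5, 90.8 and 53.0 CPM at refractory 0.5 h, against 35.6, 55.4, 44.1 and 45.8 CPM at refractory 0 h. One 0.5 h library, D, lay within the 0 h range, and the change of adamts1.S did not pass (log2 change 0.83 ± 0.22, adjusted p = 0.15 by edgeR), though it did in the 27 libraries (adjusted p = 0.0416) and without 0.5 h D alone (0.0358). Thus 1 of 45 members was called higher and none lower at refractory 0.5 h, where 0.132% of all genes were called higher and 0% lower. At 6 and 72 h in the refractory period adamts1.L averaged 78.1 and 93.7 CPM, and neither change was called.

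The regeneration series of adamts1.L averaged 59.6, 71.0, 72.2 and 93.2 CPM at 0, 0.5, 6 and 72 h. At 72 h it had 95.3, 86.0, 107 and 83.9 CPM, against 58.1, 63.6, 55.6 and 61.3 CPM at 0 h, with no overlap (log2 change 0.64 ± 0.17, adjusted p = 0.0139 by edgeR). Its homeolog adamts1.S had 61.5, 59.0, 64.6 and 65.7 CPM at 72 h, against 36.0, 42.5, 35.6 and 36.0 CPM at 0 h, again with no overlap (log2 change 0.74 ± 0.21, adjusted p = 0.0293 by edgeR). The call of adamts1.L was lost in 1 of 8 omissions, that of 72 h C (adjusted p = 0.0729), and that of adamts1.S in 7 of 8, all but that of 0 h B, with adjusted p from 0.0531 to 0.0821.

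At regeneration 0.5 h adamts1.L had 70.3, 75.1, 75.0 and 63.5 CPM, and 0 of 45 members was called in that comparison, where 0.0612% of all genes were. There 2 members had an unadjusted p under 0.05, as did 3% of all genes, and DESeq2 also called 0 members. The difference between the periods at 0.5 h, refractory minus regeneration, was 0.49 ± 0.24 for adamts1.L (unadjusted p = 0.0457, adjusted p = 1). At 72 h it was -0.53 ± 0.24 (unadjusted p = 0.0309, adjusted p = 0.534). At 0 h adamts1.L averaged 86.7 ± 19.0 CPM in refractory and 59.6 ± 3.49 CPM in regeneration tails (SD, n = 4 each; adjusted p = 0.165 by edgeR), a difference that was called only without refractory 0 h A (adjusted p = 0.0479) among the 8 omissions.

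Unlike adam33 and adam28.1, the adamts1 homeologs kept similar shares. The part of the pair's counts from adamts1.L lay between 60.4 and 65.6% in the 4 refractory groups and between 56.1 and 61.3% in the 4 regeneration groups, and no difference between the homeologs' changes was called.

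The aggrecanase genes adamts4 and adamts5 were low and gave no call, and the values given here were picked after they were seen. At regeneration 72 h adamts4.S had 13.3, 7.77, 19.2 and 12.2 CPM, against 4.72, 5.41, 7.64 and 6.32 CPM at 0 h, without overlap (log2 change 1.13 ± 0.45, adjusted p = 0.182 by edgeR). For adamts5.S the values were 3.96, 3.52, 1.85 and 3.90 CPM at refractory 6 h, against 0, 0, 0 and 0.699 CPM at refractory 0 h, again without overlap. That is 35 counts against 2, a ratio of 16.6 with a 95% exact interval of 4.26 to 142 for counting error (adjusted p = 0.265 by edgeR). Most libraries in which adamts5.S was high enough to pass the filter on low counts were at refractory 6 h. The filter thus favoured a high level there, and the ratio and lack of overlap are descriptions only. At regeneration 6 h adamts5.S held 16 counts, against 1 count at 0 h (adjusted p = 0.699). Over all libraries adamts9.L averaged 17.6, adamts4.L 4.03 and adamts5.L 4.02 CPM, with no change at an unadjusted p under 0.05.

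The procollagen N-proteinase genes, whose products trim fibrillar procollagens, gave no call in 4 tested members. The one with the most counts, adamts3.L, averaged 11.4, 14.6, 16.7 and 13.1 CPM at 0, 0.5, 6 and 72 h in the refractory period and 16.7, 16.3, 12.4 and 19.1 CPM in the regeneration period. The SDs over libraries ran from 3.19 to 6.94 CPM, and no change of adamts3.L had an unadjusted p under 0.05. The remaining 3, adamts2.S, adamts14.L and adamts14.S, averaged 10.5, 3.94 and 2.51 CPM over all libraries, with no change at an unadjusted p under 0.05.

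Of the other ADAMTS proteases 6 of 10 were tested. The one with the most counts was adamts7.L, whose product cuts cartilage oligomeric matrix protein in mammals. At refractory 72 h it had 43.3, 74.9, 78.6 and 68.6 CPM, against 27.6, 33.0, 58.8 and 41.3 CPM at refractory 0 h. The groups overlapped through 72 h A and 0 h C, and the change missed the threshold (log2 change 0.73 ± 0.21, adjusted p = 0.0526 by edgeR). In the 27 libraries, which lack 72 h A, adamts7.L averaged 73.5 ± 5.22 CPM at 72 h (n = 3) and 40.1 ± 13.6 CPM at 0 h (n = 4) and was called (SD; log2 change 0.88 ± 0.20, adjusted p = 0.00242 by edgeR). It also passed without 72 h A alone (adjusted p = 0.0104) or 0 h C alone (0.0119). Regeneration tails averaged 55.2, 60.8, 47.6 and 73.1 CPM of adamts7.L at 0, 0.5, 6 and 72 h, with no call.

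A close relative of adamts7 is adamts12, here named after its values were seen. For adamts12.L the levels were 8.99, 7.05, 6.49 and 7.44 CPM at refractory 6 h and 9.79, 4.28, 6.30 and 9.76 CPM at refractory 72 h, against 12.7, 15.7, 11.3 and 13.6 CPM at refractory 0 h. All 6 h and 72 h libraries lay below all 0 h libraries, but neither change passed the test (adjusted p = 0.382 and 0.438 by edgeR). The other 4, adamts10.L, adamts17.L, adamts6.S and adamts18.L, averaged 15.9, 4.44, 3.98 and 1.62 CPM over all libraries and were not called.

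The ADAMTS-like genes gave no call in 7 tested members. The gene adamtsl1.2.L, which had the most counts among them, averaged 12.9, 12.0, 7.06 and 11.7 CPM at 0, 0.5, 6 and 72 h in the refractory period and 15.0, 10.9, 12.6 and 7.42 CPM in the regeneration period. The other 6 averaged 1.83 to 9.63 CPM over all libraries.

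**Figure D5:**
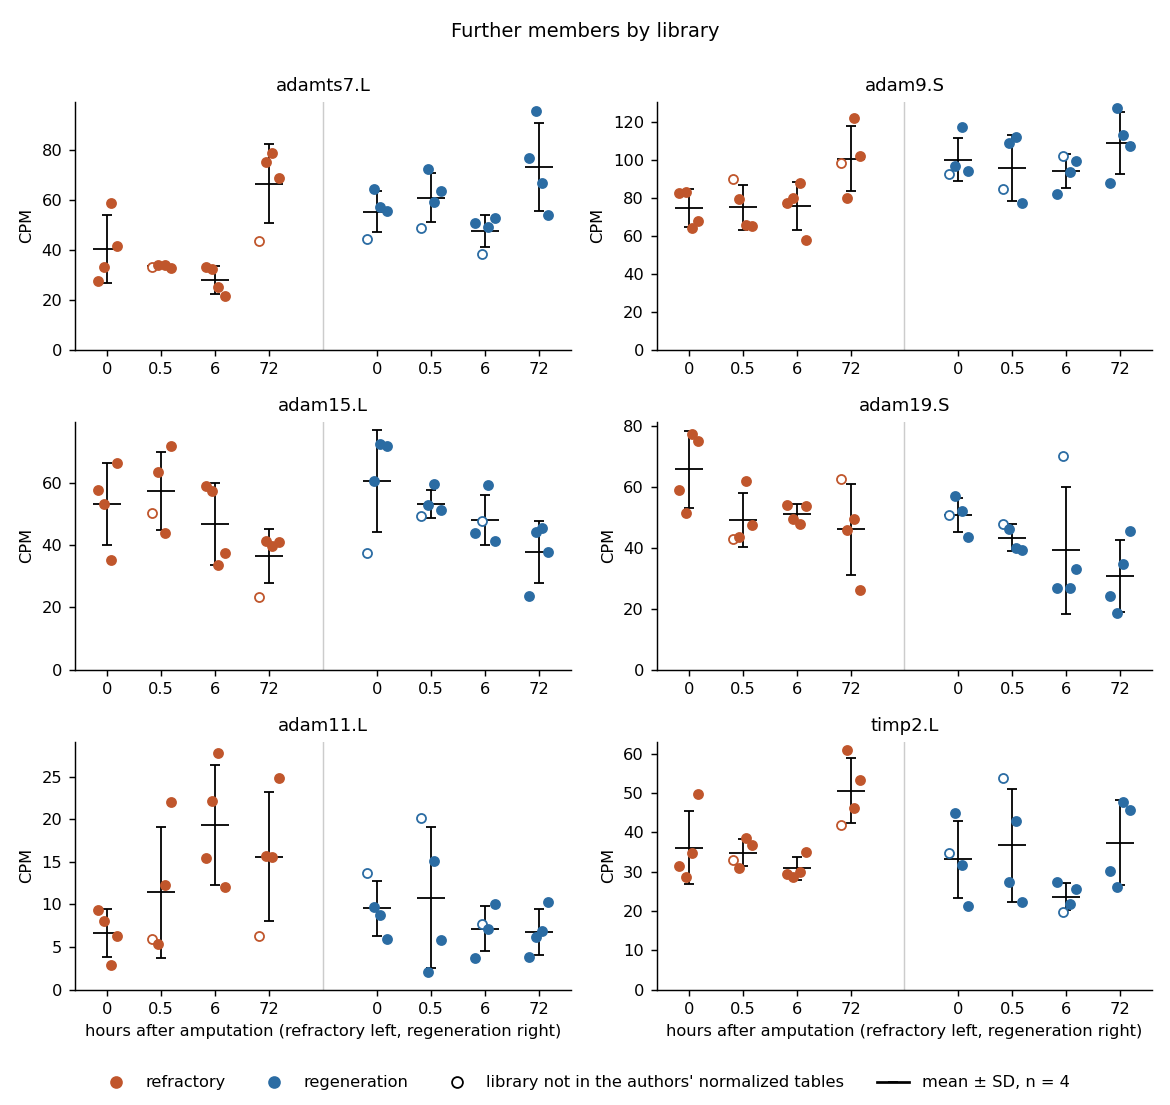
CPM of adamts7.L, adam9.S, adam15.L, adam19.S, adam11.L and timp2.L in each library (points), by hours after amputation, with refractory libraries left and regeneration libraries right of the grey line; black bars give mean ± SD of 4 libraries, and open points are the 5 libraries that the authors' normalized tables lack. None of these 6 genes was called with all libraries; the open point of adamts7.L at refractory 72 h (43.3 CPM) is the lowest of its group.

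The inhibitor genes were not called in any comparison, and the call in their group was that of htra1.L. In the refractory period htra1.L averaged 0.424, 1.17, 1.11 and 4.35 CPM at 0, 0.5, 6 and 72 h. The refractory 72 h libraries had 0, 2.85, 8.40 and 6.14 CPM, library A being the one at 0, against 1.70, 0, 0 and 0 CPM at refractory 0 h. These groups overlapped, and the change was not called (adjusted p = 0.308 by edgeR). The 4 libraries held 58 counts at refractory 72 h and 4 counts at 0 h. That is a ratio of 11.5 after scaling for depth, with a 95% exact interval of 4.27 to 43.8 for counting error. Neither the 27 libraries, which lack 72 h A, nor any of 8 omissions of 1 library gave a call.

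At regeneration 72 h htra1.L had 14.4, 11, 15.2 and 10.6 CPM, against 0.248, 0, 0 and 0 CPM at regeneration 0 h. It was present in every 72 h library and had a single count among the 0 h libraries. The 4 libraries held 191 counts at 72 h and 1 count at 0 h, a ratio of 169 after scaling for depth with a 95% exact interval of 29.9 to 6690 for counting error (adjusted p = 0.0044 by edgeR). The call of htra1.L was kept in 8 of 8 omissions, with adjusted p at most 0.028. DESeq2 gave it no adjusted p. At regeneration 0.5 and 6 h htra1.L was still low, at 0.857 and 1.03 CPM. The highest refractory 72 h library lay below the lowest regeneration 72 h library, though the share of all genes with such a gap was not counted. The difference between the periods' changes was not called for htra1.L (-3.50 ± 2.14, adjusted p = 0.75). The size of this difference depends on the prior count of the fit, because htra1.L was near 0 at 0 h in both periods.

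Its homeolog htra1.S lay between 0 and 7.26 CPM in single refractory libraries. At regeneration 72 h htra1.S had 3.27, 2.68, 6.18 and 1.92 CPM, against 0, 1.35, 1.09 and 0 CPM at 0 h, with an adjusted p of 0.392. Most of these values are within a few counts of 0.

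Of the inhibitor genes, timp2.L averaged 36.1, 34.8, 30.8 and 50.6 CPM at 0, 0.5, 6 and 72 h in the refractory period and 33.2, 36.7, 23.7 and 37.4 CPM in the regeneration period. TIMP2 in mammals takes part in the activation of MMP2 as well as its inhibition. At refractory 72 h timp2.L had 42.0, 61.0, 46.2 and 53.3 CPM, against 31.4, 28.7, 34.8 and 49.7 CPM at 0 h, with overlap and no call (log2 change 0.48 ± 0.24, adjusted p = 0.484 by edgeR).

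Its homeolog timp2.S averaged 27.2, 25.9, 22.3 and 28.5 CPM at 0, 0.5, 6 and 72 h in the refractory period and 20.8, 24.8, 19.3 and 29.0 CPM in the regeneration period. The matrix-bound inhibitor gene timp3.L was low, at 1.63, 2.98, 5.21 and 3.64 CPM in the refractory and 1.24, 0.772, 3.32 and 5.29 CPM in the regeneration series. Its homeolog timp3.S was as low, at 2.97, 5.32, 5.24 and 3.41 CPM in the refractory and 1.90, 1.68, 0.757 and 3.32 CPM in the regeneration series. At refractory 6 h timp3.L had 6.11, 4.03, 6.79 and 3.90 CPM, against 0.424, 2.34, 0.979 and 2.80 CPM at refractory 0 h, without overlap (58 and 18 counts; log2 change 1.62 ± 0.93, adjusted p = 0.521 by edgeR). No change of either timp3 gene passed the test.

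At 72 h the members' calls were as follows. In the refractory period none of 45 was called, where 1.65% of all genes were. There 9 members had an unadjusted p under 0.05, as did 10.4% of all genes. DESeq2 called 1, adamts7.L, while it gave no adjusted p to 17 of the 45. At regeneration 72 h 3 of 45 were called higher and none lower, where 1.62% of all genes were called higher and 2.23% lower. The median log2 change at 72 h was 0.18 over the members and 0.02 over all genes in the refractory period, and 0.19 and 0.02 in the regeneration period.

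Between the periods no member was called. The difference of the changes was called for 0% of all genes at 0.5 h, 0.0612% at 6 h and 0.466% at 72 h. An unadjusted p under 0.05 was seen for 1, 2 and 3 members, and for 3.33, 5.77 and 8.23% of all genes. DESeq2 called 0 members in each, but it gave no adjusted p to 30 members at 6 h and 21 at 72 h. Those members could not be called by it. At 0 h, refractory against regeneration, 0.669% of all genes were called. An unadjusted p under 0.05 was seen for 4 members, adamts1.L, adam9.S, adam28.1.L and adamts7.L, and for 8.7% of all genes. The adjusted p of these members ran from 0.165 to 0.484 by edgeR. DESeq2 called 0 there as well. Comparisons with 0 h within a period share their 0 h libraries, so the values of a gene at different times are not independent.

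The genes that work with these proteases were counted from 5 lists. Over all genes 2.21% were called higher and 0.24% lower at refractory 6 h, 0.598% and 1.05% at refractory 72 h, and 1.62% and 2.23% at regeneration 72 h. Of 27 tested genes of shed ligands and their receptors, 3 rose at refractory 6 h and none fell (median log2 change 0.61, against -0.02 over all genes): jag1.L and jag1.S, which encode a Notch ligand, and the ephrin gene efna1.L. In the 27 libraries the same 3 genes were called. For jag1.L the levels were 33.6 ± 10.3 CPM at refractory 6 h and 13.6 ± 5.38 CPM at 0 h (SD, n = 4 each; adjusted p = 0.0197 by edgeR). At regeneration 72 h jag1.L also rose, to 37.0 ± 9.50 CPM, against 16 ± 3.86 CPM at 0 h (SD, n = 4 each; adjusted p = 0.0191 by edgeR). Of 20 tested genes of the sheddases adam10 and adam17 and their regulators, 2 rose at refractory 6 h. They were furin.L, a convertase that removes the prodomain of ADAM proteases, and tspan15.L, a tetraspanin partner of ADAM10.

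At 72 h substrates and microfibril genes were among those called. Of 12 tested proteoglycan substrates and hyaluronan partners 2 rose in the refractory period, bcan.L (brevican) and hapln3.S (a hyaluronan link protein), and 2 in the regeneration period, bcan.L and fbln1.L (fibulin-1, a cofactor of ADAMTS1 in mammals). At regeneration 72 h fbln1.L had 1100 ± 60.0 CPM, against 615 ± 61.2 CPM at 0 h (SD, n = 4 each; adjusted p = 2.92e-09 by edgeR), and its change was smaller in the refractory period (difference, refractory minus regeneration, -0.80 ± 0.14, adjusted p = 2.28e-04 by edgeR). Of 15 tested fibrillin microfibril genes 1 rose in the refractory period (ltbp3.S) and 3 in the regeneration period (ltbp1.L, ltbp3.S and mfap2.S). For mfap2.S, a microfibril protein gene, the difference was -0.76 ± 0.17 (adjusted p = 0.0114 by edgeR). Of 21 tested procollagen genes and their processing enzymes 1 fell in each period, col2a1.S in the refractory period and col3a1.L in the regeneration period.

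These counts at 72 h depended on the libraries used. In the 27 libraries 4 proteoglycan genes rose in the refractory period (bcan.L, bcan.S, hapln3.S and vcan.L, the versican gene) and 2 in the regeneration period (bcan.L and fbln1.L). Of the microfibril genes 2 rose in the refractory period (fbn3.S and ltbp3.S) and 3 in the regeneration period (ltbp1.L, ltbp3.S and mfap2.S). Of 22 procollagen genes and processing enzymes 4 rose (col3a1.S, col5a1.L, col5a2.L and furin.L) and 3 fell (col1a2.S, col2a1.L and col2a1.S) in the refractory period, and 2 rose (furin.L and pcolce.S) and 3 fell (col2a1.L, col2a1.S and col3a1.L) in the regeneration period. Over all genes 3.48% were called in either direction at refractory 72 h and 5.18% at regeneration 72 h in the 27 libraries. Of the shed ligand and receptor genes 1 rose in the refractory period (jag1.L) and 2 in the regeneration period (efna1.L and jag1.L). At refractory 6 h the 27 libraries gave 3 sheddase regulators (furin.L, tspan14.S and tspan15.L), against the 2 above, with ltbp1.L higher and fbln1.L lower as well. At regeneration 6 h they gave 1 sheddase regulator, furin.L, where 1.51% of all genes were called in either direction.

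Tissue markers moved at the same time. At 72 h 11 of 13 skeletal muscle markers fell in the refractory period and 12 of 13 in the regeneration period. Of 10 notochord markers 3 rose and 1 (col2a1.S) fell in the refractory period, and 6 rose in the regeneration period. In the 27 libraries 12 of the 13 muscle markers fell in each period. Of the notochord markers 5 rose and 2 (col2a1.L and col2a1.S) fell there in the refractory period. In the regeneration period 6 rose and the same 2 fell. The summed muscle level ran from 38700 to 54700 CPM at refractory 72 h, against 65100 to 97600 CPM at 0 h, and from 24300 to 38500 CPM at regeneration 72 h, against 56100 to 77600 CPM at 0 h. The summed notochord level ran from 3180 to 3890 CPM at refractory 72 h, against 4510 to 5610 CPM at 0 h, and from 3720 to 4390 CPM at regeneration 72 h, against 3510 to 5710 CPM at 0 h. The lowest regeneration 0 h value was that of library A, which stood apart. The other 0 h libraries ran from 4790 to 5710 CPM, above all those at regeneration 72 h. The notochord sum was mostly that of the collagen genes col2a1.L and col2a1.S, with means of 1970 and 2390 CPM over all libraries. The next highest notochord marker, shh.L, averaged 102 CPM, so the sum says little about the other markers. The summed mesenchyme level ran from 7520 to 15500 CPM at refractory 72 h, against 14300 to 29800 CPM at 0 h, with no marker called, and from 16500 to 20200 CPM at regeneration 72 h, against 8160 to 17400 CPM at 0 h, with dcn.L, the decorin gene, called higher. The lowest values were those of refractory 72 h A and regeneration 0 h A. Without them the sum ran from 12600 to 15500 CPM at refractory 72 h and from 15400 to 17400 CPM at regeneration 0 h. The median log2 change of the myeloid markers was 1.01 at refractory 72 h, with none called, and 0.94 at regeneration 72 h, with ctss.S called higher. In the 27 libraries it was 1.19 at refractory 72 h, with spi1.L called higher, and 0.864 at regeneration 72 h, with ctss.S called higher. The part of these tissues in the levels of adamts1, htra1 and the matrix genes was not tested.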

How the data were processed

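RNA was made from 20 embryos per sample, and 100 ng went into a Lexogen SENSE library, per the labels' protocols. Per the submitters' processing notes, reads were aligned or counted with tools that include HTSeq 0.6.1p1 and STAR 2.7.9a, and R 4.1.0 with DESeq2 1.32.0 was used. The genome build, the annotation and the handling of shared reads: not given in the sources used here. No positions are printed for that reason. The deposited raw tables hold read counts per gene. The authors' normalized tables hold a signal, the counts divided by a size factor, for 27 of the 32 libraries, and served only to define that set. All 57 members matched a RefSeq symbol.

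R 4.3.3 and edgeR 4.0.16 were used: TMM, filterByExpr by group, and 1 robust quasi-likelihood model of 8 groups with 24 residual degrees of freedom, tested in 10 contrasts. Genes in both tables (27467) entered, and 21231 passed. Homeologs were compared with limma 3.58.1 on log2 CPM at a prior count of 2. DESeq2 1.42.0 was an alternative. P-values are two-sided. Both tests were tested on simulated data. That of homeologs missed its first pass mark, which was then replaced by marks per fold size. It found smaller differences less often than larger ones, so an uncalled pair may still differ. The simulated counts varied less between libraries than the data do. Changes were put only into pairs with both homeologs at levels that adam28.1.L and adam33.S do not reach. The simulation therefore does not show how the tests do on such low members. Named were called members with their homeologs, all timp and htra1 genes, and the member with the most counts in each role. Members, lists and tests were chosen with earlier results of these data known. Roles were assigned by symbol, since no protein sequences were used here. A further list, of other protease inhibitors and clearance, is not reported here.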

Additional observations from a re-analysis of the deposited data

Results flagged for a closer look

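In groups of 4, a library was singled out where its gap to the nearest of the others, divided by the group's range, exceeded Dixon's 95% critical value. Of 102 combinations of a named gene and a group with a mean of at least 5 CPM, 6 were singled out, and chance gives about 1 in 20. For adam33.L, regeneration 72 h B stood at 89.2 CPM, above the 77.6 to 79.1 CPM of the others, and refractory 0 h C at 50 CPM, below 56.0 to 56.7 CPM. For adamts1.S, regeneration 0 h B stood at 42.5 CPM, above 35.6 to 36.0 CPM, and regeneration 6 h B at 25.9 CPM, below 60.2 to 61.8 CPM. For adam33.S, regeneration 0.5 h A stood at 16.1 CPM, above 10.3 to 10.5 CPM. For adamts3.L, regeneration 0 h A stood at 9.93 CPM, below 18.2 to 19.5 CPM. Regeneration 0 h A, 0.5 h A and 6 h B are also libraries that stood apart in tissue markers; the part of that in these values was not tested.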

How the results depend on the processing

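In the 27 libraries of the normalized tables, 2 members were called at refractory 0.5 h (0.308% of all genes), 3 at refractory 6 h (4.13%), 2 at refractory 72 h (3.48%), 1 at regeneration 6 h (1.51%) and 5 at regeneration 72 h (5.18%). Fitting only the groups compared gave 2 at refractory 0.5 h and 3 at refractory 6 h (adam11.L, adam28.1.L and adam33.L). In each of these fits 31 members were tested, and 0.335% and 3.98% of all genes were called. At refractory 72 h, DESeq2 gave 1 (adamts7.L), where it called 2.44% of all genes. With no filter on low counts, 1 of 56 members was called there (adam28.1.L, adjusted p = 0.0482 by edgeR), and 1.16% of all genes. With a mean of at least 5 CPM, 1 homeolog pair was called, since adam28.1.L then fell out. Leaving out 1 library, the members called numbered 0 to 2 at refractory 0.5 h, 0 to 2 at refractory 72 h, 0 to 1 at regeneration 6 h, 1 to 3 at regeneration 72 h and 0 to 1 at 0 h (refractory against regeneration), and the homeolog pairs called 1 to 2; over these omissions the count was 2 at refractory 6 h, and 0 at regeneration 0.5 h and for the differences between the periods. Of all genes, the omissions called 0.0823 to 0.119% at refractory 0.5 h, 1.56 to 2.31% at refractory 6 h and 0.821 to 1.76% at refractory 72 h. They called 0.0547 to 1.05% at regeneration 6 h, 2.25 to 3.35% at regeneration 72 h and 0.223 to 0.946% at 0 h between the periods. The cause of these differences between settings was not tested. No result reversed its direction under any setting run. Letters A to D were not taken to pair the samples. Same-letter correlations ran from -0.031 to 0.255 in the refractory and from -0.486 to 0.587 in the regeneration period. Their means were 0.0794 and -0.00116, against -0.0263 and 0.0076 for other letters. That some were negative does not exclude a pairing. As a hint of pairing from the data, 17 of 32 libraries correlated best with their own letter out of A to D. With the letter as a replicate block, 1 member was called at refractory 72 h (adamts7.L, adjusted p = 0.0476 by edgeR), where 1.73% of all genes were. No other call changed. Depth limits the low members: at 0.713 to 1.6 CPM for 3 counts, changes of timp3, htra1.S or adamts5.S rest on few reads.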
